A study of Mus musculus with 4 samples.

Results

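The collagen genes of the mouse were read across 4 livers with acute-on-chronic liver failure (ACLF), the sudden decline of an already diseased liver. They were taken by symbol, Col followed by a chain number, and 44 of the 21959 genes in the deposited table matched. All 4 livers came from wild-type mice, of which 2 had been given saline and 2 baicalein, a flavone from the root of Scutellaria baicalensis. The livers are called saline 1, saline 2, baicalein 1 and baicalein 2, after the numbers in their titles, and wherever 4 values follow each other they are in this order. The labels used here name no strain, age, dose or way of inducing the disease, nor whether every liver is from a separate animal. The p-values therefore reflect no more than the scatter of these 4 samples, part of which may be technical. By the kind of protein they encode, 11 of the genes belong to the fibrillar collagens, 6 to type IV of basement membranes, 2 to the multiplexins, 6 to type VI, 9 to the FACIT group, 4 to type VII and the short-chain network types, and 6 to transmembrane and other types. Enough reads for a test were present for 29 of the 44.

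Collagens are proteins of 3 chains wound into a triple helix. Fibrillar types such as I, III and V form the cables that accumulate in scar tissue, and in injured liver they are made mainly by activated hepatic stellate cells and portal fibroblasts. Type IV forms the sheet-like network of basement membranes, and the chains of type IV are encoded by gene pairs that lie head to head on opposite strands. FACIT collagens sit on the surface of fibrils, type VI forms beaded filaments around cells, and the multiplexins, types XV and XVIII, lie in basement membrane zones. Hepatocytes themselves express Col18a1, whose C-terminal fragment is endostatin.

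Promoter sequences are shown for the head-to-head pair Col4a1 and Col4a2, whose levels are set side by side below, and for 3 genes that differed between the groups. A window of 300 bases around the gene start, 250 before and 50 after, was found in the RefSeq table of build GRCm38.p6 for 35 of the 44 genes, and all sequences are given 5′ to 3′ on the gene's own strand. The windows of Col4a1 (chr8:11312777-11313076, minus strand) and Col4a2 (chr8:11312555-11312854, plus strand) share 78 bases, printed in capitals, and their transcripts overlap by 22 bases at their starts.
Col4a1: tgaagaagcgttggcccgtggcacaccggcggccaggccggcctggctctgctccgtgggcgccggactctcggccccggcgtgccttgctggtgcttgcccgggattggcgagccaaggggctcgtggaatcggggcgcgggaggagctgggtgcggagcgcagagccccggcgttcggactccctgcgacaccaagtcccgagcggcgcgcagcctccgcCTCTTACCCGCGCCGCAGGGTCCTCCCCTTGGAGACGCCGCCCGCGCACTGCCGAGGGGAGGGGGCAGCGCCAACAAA
Col4a2: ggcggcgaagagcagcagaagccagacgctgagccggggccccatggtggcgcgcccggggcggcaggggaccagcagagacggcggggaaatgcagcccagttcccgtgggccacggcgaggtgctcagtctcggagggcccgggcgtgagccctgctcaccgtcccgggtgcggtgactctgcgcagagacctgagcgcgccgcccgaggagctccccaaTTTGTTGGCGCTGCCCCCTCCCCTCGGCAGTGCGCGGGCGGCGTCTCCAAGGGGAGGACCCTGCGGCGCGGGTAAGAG
In the windows of Col4a5 (chrX:141475169-141475468, plus strand), Col5a3 (chr9:20815018-20815317, minus strand) and Col27a1 (chr4:63215162-63215461, plus strand) the capitals mark matches, on either strand, to the CCAAT box (CCAAT or ATTGG) and the GC box (GGGCGG or CCGCCC).
Col4a5: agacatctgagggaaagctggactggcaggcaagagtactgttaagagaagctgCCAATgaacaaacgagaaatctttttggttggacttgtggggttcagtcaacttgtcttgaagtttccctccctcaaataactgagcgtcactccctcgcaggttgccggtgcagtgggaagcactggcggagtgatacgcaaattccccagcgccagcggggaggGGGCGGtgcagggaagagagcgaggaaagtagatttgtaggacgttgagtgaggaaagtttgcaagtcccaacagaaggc
Col5a3: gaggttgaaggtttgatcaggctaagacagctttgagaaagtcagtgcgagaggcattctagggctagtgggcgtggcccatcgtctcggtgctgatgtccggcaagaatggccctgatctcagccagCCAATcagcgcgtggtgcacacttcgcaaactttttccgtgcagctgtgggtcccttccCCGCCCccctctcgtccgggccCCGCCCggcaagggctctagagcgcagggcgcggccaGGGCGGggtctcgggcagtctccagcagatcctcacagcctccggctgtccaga
Col27a1: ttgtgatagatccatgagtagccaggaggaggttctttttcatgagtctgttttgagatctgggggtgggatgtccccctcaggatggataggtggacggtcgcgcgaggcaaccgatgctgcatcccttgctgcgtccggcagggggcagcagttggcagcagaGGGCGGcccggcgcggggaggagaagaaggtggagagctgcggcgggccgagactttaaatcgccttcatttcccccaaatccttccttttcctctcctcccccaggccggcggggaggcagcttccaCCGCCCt
Of the 38 windows of collagen genes (some genes have more than 1 start), 23 held a GC box, against 35.7% of the 32851 windows of all genes. The CCAAT box was in 13 collagen windows, against 37.4% of all windows, and the letters TATAAA, searched on both strands as well, were in 5, against 13.6% of all. These matches describe the letters of the windows and are not binding sites.

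Total counts per liver ran from 13976440 to 18731616, so that 3 reads corresponded to 0.150 to 0.219 CPM, the read count scaled to a common library size after normalisation between the livers (cpm of edgeR). As for the labelled tissue, the 7 hepatocyte markers measured summed to between 79601 and 112883 CPM. Saline 1 and baicalein 2 also held transcripts of skeletal muscle. The 20 muscle markers, which include the creatine kinase gene Ckm and the actin gene Acta1, summed to 7737 CPM in saline 1 and 2546 CPM in baicalein 2, against 10.6 CPM in saline 2 and 7.496 CPM in baicalein 1. Ckm reads numbered 5679 and 0 with saline, and 0 and 1548 with baicalein. Markers of adipocytes went the same way, with 175 and 3 reads in the saline livers and 0 and 260 in the baicalein livers. Markers of smooth muscle were at 33.7, 15.9, 13.1 and 273 CPM, the highest being baicalein 2. The 4 Y-linked genes Ddx3y, Kdm5d, Eif2s3y and Uty had 820 and 836 reads in the saline livers and 2 and 1 in the baicalein livers. By these reads the saline livers were male and the baicalein livers female. In every comparison between the groups, treatment cannot be told apart from this difference of sex. In bulk tissue, fewer cells of a type and less RNA per cell cannot be told apart either.

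Col18a1 was the most abundant collagen transcript in each of the 4 livers. Its deposited FPKM (the count scaled by gene length and library total, which allows genes to be ranked within a liver) was 158 and 173 in the saline livers and 174 and 160 in the baicalein livers. It made up 60.1%, 75.0%, 69.6% and 52.5% of the summed FPKM of all collagens in the same order. Over the mean of the 4 livers Col3a1, Col14a1, Col4a1, Col1a1, Col4a2 and Col1a2 followed, in that order. Col3a1, the chain of type III collagen, had an FPKM of 18.2, 8.25, 10.5 and 27.2, and Col1a1, the major chain of type I, 19.002, 4.88, 4.31 and 16.5. The order of the genes after Col18a1 was therefore not the same in all livers: Col14a1 stood above Col3a1 and Col1a1 in baicalein 1, at 19.3, and below both in saline 1, at 7.89. Col2a1 and Col9a1, both known from cartilage, had no read in any liver.

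**Figure D1:**
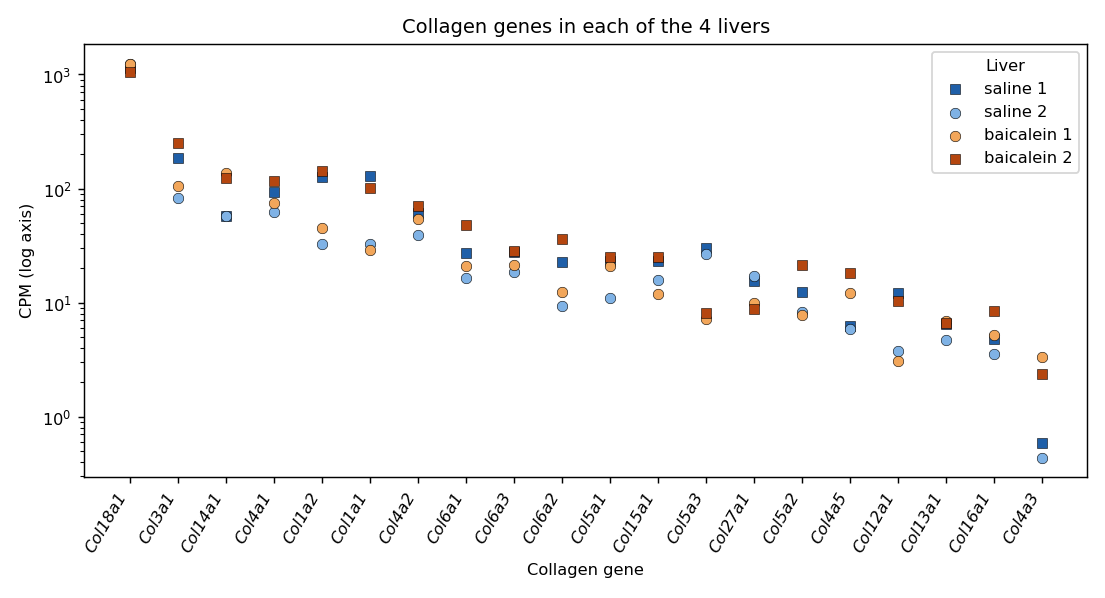
Level of 20 collagen genes in each liver, in CPM on a log axis, sorted by mean. They are the 19 genes with a mean of at least 5 CPM, and Col4a3. Squares are saline 1 and baicalein 2, the livers with muscle transcripts, and lie above the circles for Col1a1, Col1a2, Col3a1 and Col12a1. For Col14a1, Col5a3, Col27a1, Col4a5 and Col4a3 the blue and orange symbols separate instead.

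Between baicalein and saline livers 5 of the 29 tested collagens differed at an adjusted p below 0.05: Col14a1, Col4a5 and Col4a3 rose, and Col5a3 and Col27a1 fell. The test was edgeR's quasi-likelihood test with Benjamini-Hochberg adjustment over all 12657 tested genes, of which 15.5% were called in either direction, 7.65% higher and 7.9% lower. The share among collagens was close to that among all genes. The median log2 fold change of the 29 was 0.30, against 0.01 for all tested genes, with 20 estimates above 0 and 9 below. In 10 of the 29 the livers of the groups did not overlap, 8 being higher and 2 lower with baicalein. Over all tested genes 59.2% did not overlap, 29.7% higher and 29.5% lower. The number called depended on the livers used. Without saline 2 it was 2, Col14a1 and Col5a3 (7.89% of all genes). It was 4 without saline 1 (8.32% of all genes), 3 of the 5 and Col5a1. It was 5 without baicalein 1 (9.92%), 4 of the 5 and Col4a6, and 4 without baicalein 2 (8.82%), where Col27a1 was lost. With the replicate number as a block it was the same 5 (8.94%). With a crosswise block, which pairs each liver that holds muscle transcripts with the other of its kind, it was 14 (27.6%). These were the 5 and Col1a1, Col1a2, Col3a1, Col5a1, Col4a1, Col4a2, Col6a1, Col6a2 and Col16a1. The pairing follows the muscle transcripts seen in these same livers, so the added calls are not independent of them. Leaving out Col4a3 and Col23a1, which passed the filter on low counts through the baicalein livers alone, 4 of 27 were called, with a median of 0.29.

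**Figure D2:**
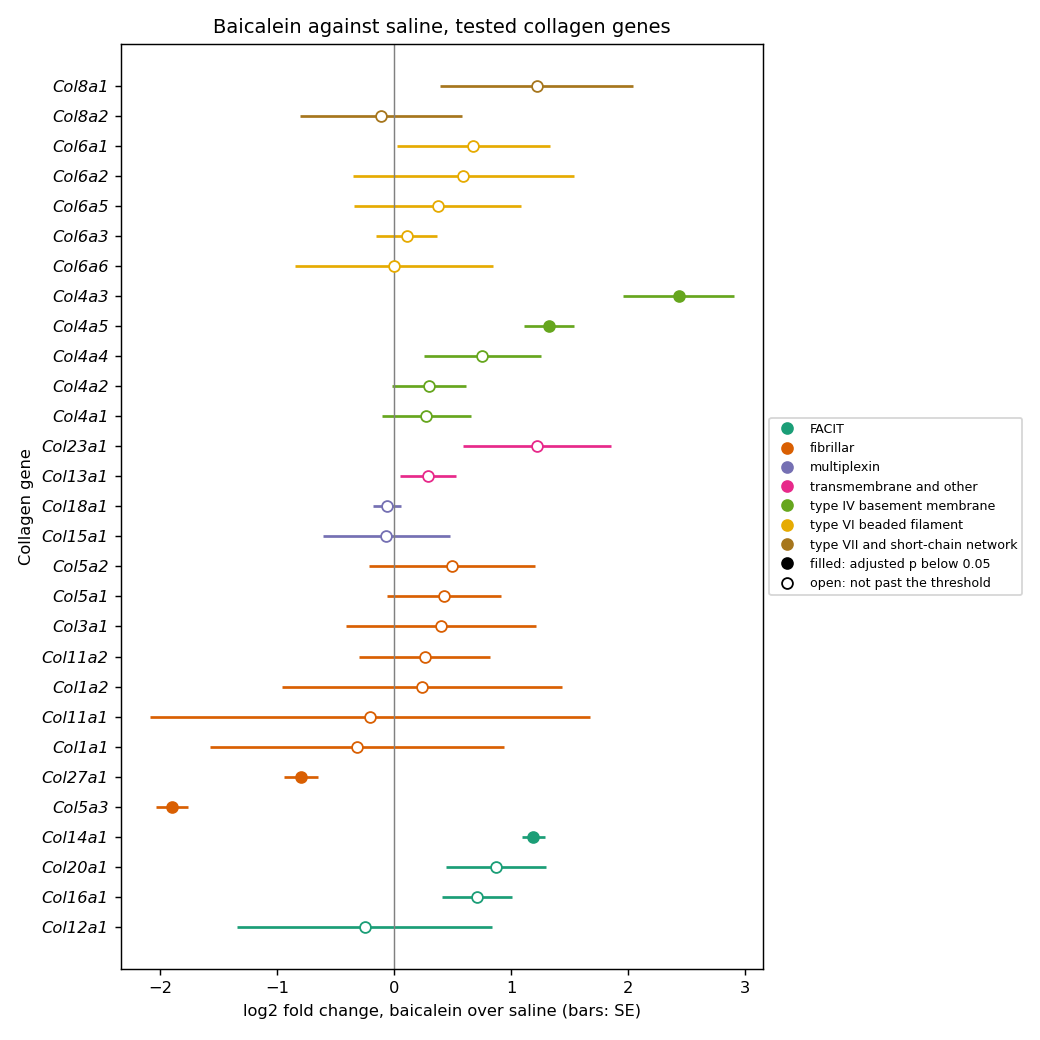
Log2 fold change of baicalein over saline with its standard error for the 29 tested collagens, grouped by family. Filled points passed the threshold of 0.05: Col14a1, Col4a5 and Col4a3 to the right of 0, Col5a3 and Col27a1 to the left. The widest bars belong to Col11a1, Col1a1, Col1a2 and Col12a1.

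Among fibrillar collagens, a pair of minor members fell. Of 11 genes 9 were tested, 2 fell, 0 rose and 7 did not pass (edgeR), with a median log2 fold change of 0.24. Over all tested genes 7.9% were lower and 7.65% higher. Col5a3 (ENSMUSG00000004098, chromosome 9, 20681346 to 20726363 in the deposited table, minus strand) encodes the α3 chain of type V collagen, a minor fibrillar type that lies inside larger fibrils. It was at 30.2 and 26.9 CPM in saline 1 and saline 2 and at 7.15 and 8.18 CPM in baicalein 1 and baicalein 2. Both saline livers lay above both baicalein livers, and the group means were 28.6 ± 2.34 and 7.67 ± 0.729 CPM (SD, n = 2 each). The level with saline was 3.72-fold that with baicalein (log2 fold change -1.89, SE 0.14, edgeR adjusted p = 5.50e-05). The ratio of baicalein to saline was 0.266 in the livers low in muscle transcripts (baicalein 1 over saline 2) and 0.271 in those that hold them (baicalein 2 over saline 1). The other chains of type V overlapped between the groups: Col5a1 was at 23.3, 10.9, 20.8 and 25.2 CPM and Col5a2 at 12.5, 8.24, 7.77 and 21.4 CPM, the saline livers given first. Neither passed (edgeR adjusted p = 0.667 and 0.739). With saline 1 left out Col5a1 was past the threshold (adjusted p = 0.00886). Col11a2, a minor chain of cartilage fibrils, stayed between 0.656 and 1.03 CPM and did not pass.

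Col27a1 (ENSMUSG00000045672, chromosome 4, 63132241 to 63253228 in the table, plus strand) encodes type XXVII, a fibrillar collagen best known from cartilage. It was at 15.3 and 17.0 CPM with saline and at 9.90 and 8.73 CPM with baicalein. The groups did not overlap, and the log2 fold change was -0.80 (SE 0.15, edgeR adjusted p = 0.00762). The ratio was 0.583 between the livers low in muscle transcripts and 0.569 between the other pair. The call was lost without saline 2 or without baicalein 2 (adjusted p = 0.0586 and 0.0725).

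The chains of types I and III, the bulk of fibrillar collagen, followed the livers that hold muscle transcripts. Col1a1 had 2204 and 448 reads with saline and 418 and 2030 with baicalein, or 130, 32.7, 28.7 and 101 CPM. Col1a2, its partner chain, was at 126, 32.6, 44.9 and 142 CPM, and Col3a1 at 186, 82.6, 105 and 250 CPM. In all 3 genes saline 1 and baicalein 2 were high, saline 2 and baicalein 1 were low, and the groups overlapped. The difference between livers of 1 group was 3.97-fold and 3.52-fold for Col1a1 (saline 1 over saline 2, and baicalein 2 over baicalein 1), 3.86-fold and 3.16-fold for Col1a2 and 2.25-fold and 2.38-fold for Col3a1. None of the 3 passed between the groups: the log2 fold change was -0.32 (SE 1.25) for Col1a1, 0.24 (SE 1.20) for Col1a2 and 0.40 (SE 0.81) for Col3a1, with edgeR adjusted p of 0.915, 0.931 and 0.823. The direction of each turned when a single liver was left out. Between the livers low in muscle transcripts, baicalein 1 and saline 2, the ratios were 0.880 for Col1a1, 1.38 for Col1a2 and 1.27 for Col3a1, and between baicalein 2 and saline 1 they were 0.782, 1.13 and 1.34. Markers of portal fibroblasts and mesothelium summed to 26.7, 11.6, 17.8 and 61.0 CPM, also highest in saline 1 and baicalein 2. Of the 8 tested, 5 were higher in saline 1 than saline 2 and in baicalein 2 than baicalein 1. Over all tested genes 26.5% were. What part the muscle, adipose, portal fibroblast or connective tissue transcripts have in the levels of Col1a1, Col1a2 and Col3a1 was not tested.

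The summed fibrillar level showed the same split. It was 524 and 212 CPM with saline, and 225 and 559 CPM with baicalein. Within each group the higher liver was 2.48 times the lower one, whereas the ratio of baicalein to saline was 1.06 between the livers low in muscle transcripts and 1.07 between the livers with them. Without Col1a1, Col1a2 and Col3a1 the fibrillar sum was 83.1, 63.8, 46.9 and 65.5 CPM. With 2 livers in each group an exact two-sided permutation test of such a sum cannot go below p = 0.333, so no test was made.

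**Figure D3:**
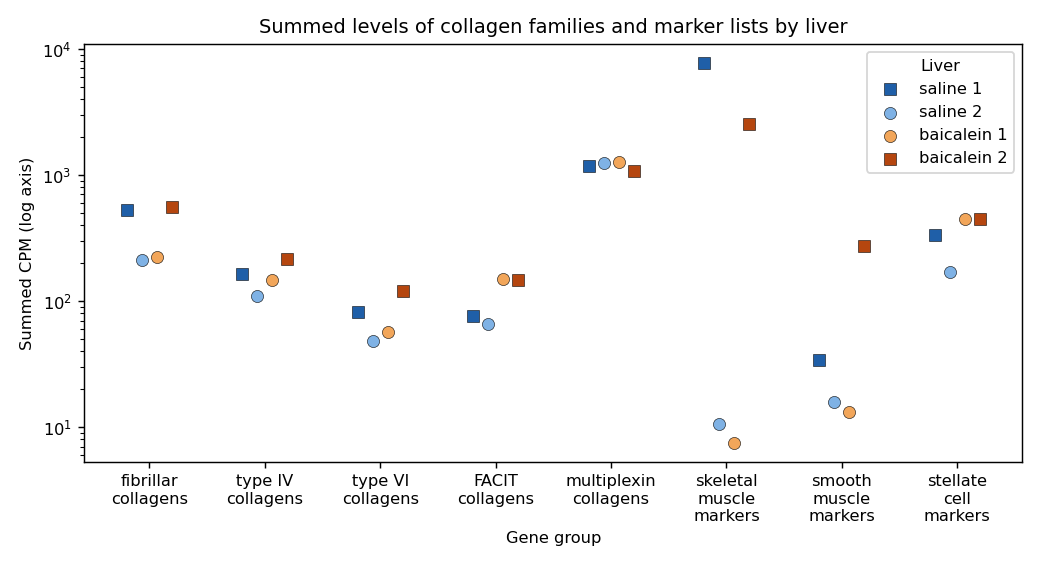
Summed CPM of 5 collagen families and 3 marker lists in each liver, on a log axis. Fibrillar, type IV and type VI collagens are highest in saline 1 and baicalein 2 (squares). So are the skeletal muscle markers, which run from 7.496 to 7737 CPM. FACIT collagens are higher in both baicalein livers, and the multiplexins differ little between the 4.

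Many collagens differed between livers of the same group in the same way. Of the 29 tested collagens, 21 were higher in saline 1 than in saline 2 and also higher in baicalein 2 than in baicalein 1, against 26.5% of all tested genes. At least 2-fold in both were 7, namely Col1a1, Col1a2, Col3a1, Col11a1, Col12a1, Col6a2 and Col8a1, against 3.74% of all tested genes. Col11a1, a fibrillar chain typical of cartilage, had 13 reads in saline 1, 13 in baicalein 2 and none in the others. Col12a1, a FACIT collagen of tendon and other dense connective tissue, was at 12.2, 3.79, 3.09 and 10.3 CPM. Col22a1, a FACIT collagen of the junction between muscle and tendon, had too few reads for a test, with 12, 0, 0 and 11. The 8 tested collagens that were not higher in both were Col14a1, Col27a1, Col18a1, Col4a3, Col11a2, Col13a1, Col20a1 and Col6a5, 3 of them among the 5 that differed between the groups.

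**Figure D4:**
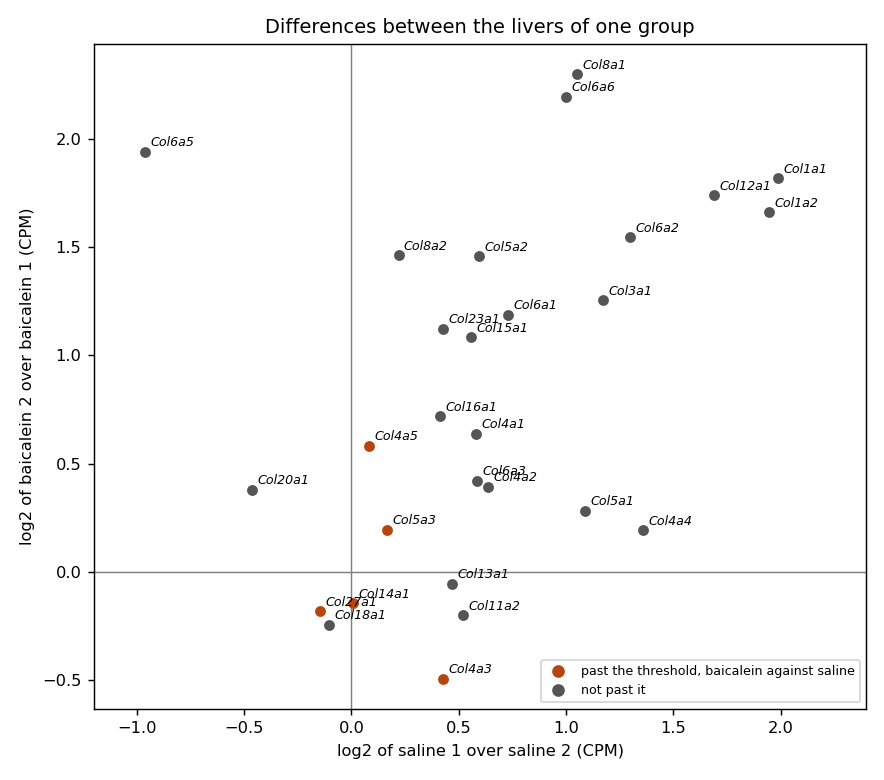
Each tested collagen by the log2 ratio of saline 1 to saline 2 (x axis) and of baicalein 2 to baicalein 1 (y axis). Col1a1, Col1a2 and Col12a1 lie at the upper right, between 1.66 and 1.99 on both axes. Col14a1, Col27a1 and Col18a1 lie near the origin. Col11a1 is left out, since it had no read in saline 2 and baicalein 1.

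Type IV collagen, the basement membrane network, had 2 members that rose, 0 that fell and 3 that did not pass among 5 tested of 6 genes (edgeR), with a median log2 fold change of 0.75. Over all tested genes 7.65% were higher and 7.9% lower. Without Col4a3, which passed the filter on low counts through the baicalein livers alone, 1 of 4 rose and the median was 0.53. Col4a5 (ENSMUSG00000031274, chromosome X, 140258381 to 140472230 in the table, plus strand) encodes the α5 chain. It was at 6.17 and 5.83 CPM with saline and 12.0 and 18.0 CPM with baicalein, from 105, 80, 175 and 361 reads. Both baicalein livers were above both saline livers, at a mean of 15.0 ± 4.23 against 6.004 ± 0.239 CPM (SD, n = 2 each; log2 fold change 1.32, SE 0.21, edgeR adjusted p = 0.00420). The ratio was 2.06 between baicalein 1 and saline 2 and 2.92 between baicalein 2 and saline 1. The call was lost without saline 1 or saline 2 (adjusted p = 0.0696 and 0.0537).

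Col4a3 (ENSMUSG00000079465, chromosome 1, 82564642 to 82699780 in the table, plus strand), which encodes the α3 chain and is mutated in Alport syndrome together with the genes of the α4 and α5 chains, had low counts. These were 10 and 6 reads with saline and 48 and 47 with baicalein, or 0.513 ± 0.106 and 2.82 ± 0.676 CPM (SD, n = 2 each). The log2 fold change was 2.43 (SE 0.47, edgeR adjusted p = 0.00950). At its saline level in all livers Col4a3 would not have passed the filter on low counts. With no such filter it was called too (adjusted p = 0.00498). Its call was lost with limma-voom (adjusted p = 0.0524) and without saline 1, saline 2 or baicalein 1 (0.0552, 0.0818 and 0.0952). Its head-to-head neighbour Col4a4 was at 2.06, 0.802, 2.27 and 2.59 CPM, saline livers first. It was higher in both baicalein livers but not past the threshold (adjusted p = 0.363).

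The abundant type IV chains did not pass, and their groups overlapped. Col4a1, the α1 chain, was at 93.8, 62.6, 74.1 and 115 CPM and Col4a2, the α2 chain, at 61.4, 39.5, 53.7 and 70.5 CPM in the same order. Their log2 fold changes were 0.28 (SE 0.38) and 0.30 (SE 0.31), with edgeR adjusted p of 0.720 and 0.629. These genes share the printed promoter stretch, and the ratio of their FPKM was 1.35, 1.41, 1.22 and 1.45. Col4a6, which starts 1343 bases from Col4a5 on the other strand in the RefSeq windows, had 5, 2, 4 and 144 reads. It was high in baicalein 2 alone, the liver with the highest level of smooth muscle markers, and had too few reads elsewhere for a test. The part of smooth muscle transcripts in it was not tested. The summed type IV level was 164, 109, 146 and 216 CPM, so that saline 1 and baicalein 2 were the high livers here too. Saline 1 was 1.50 times saline 2, and baicalein 2 was 1.48 times baicalein 1. The ratio of baicalein to saline was 1.33 between the livers low in muscle transcripts and 1.32 between the other pair. The fibrillar sum was 3.19, 1.93, 1.55 and 2.59 times the type IV sum (in CPM), so that the balance was more fibrillar in saline 1 and baicalein 2.

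The multiplexins did not pass. Col18a1 was at 1151, 1237, 1244 and 1050 CPM, from 16961 to 21042 reads, and its log2 fold change of -0.06 had a small error (SE 0.12, edgeR adjusted p = 0.803). In the deposited table its span overlaps that of Slc19a1 on the other strand by 8825 bases, and the sources used here do not say whether counting used strand. Col15a1, the other multiplexin, was at 23.2, 15.8, 11.9 and 25.2 CPM (adjusted p = 0.958). Of the type VI chains, 5 were tested and none passed, where 15.5% of all tested genes were called in either direction. A count of 0 among 5 genes is near that share. Col6a1 was at 27.0, 16.3, 21.1 and 48.0 CPM, Col6a2 at 22.8, 9.26, 12.3 and 35.9 CPM and Col6a3 at 27.7, 18.5, 21.2 and 28.4 CPM. In all 3 saline 1 and baicalein 2 were the high livers of their groups. Col6a5 and Col6a6 lay between 0.894 and 4.09 CPM. The count of 0 for type VI comes with 0 members at an adjusted p below 0.05 by DESeq2 and limma-voom too, and with 0 at an unadjusted p below 0.05. The crosswise block called 2 of them.

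Among FACIT collagens Col14a1 rose, with little spread between livers of a group. Col14a1 (ENSMUSG00000022371, chromosome 15, 55171146 to 55384199 in the table, plus strand) encodes type XIV collagen, which binds the surface of fibrils and interacts with decorin. It was at 57.5 and 57.2 CPM in the saline livers and at 138 and 124 CPM in the baicalein livers, from 978, 784, 2000 and 2493 reads. Livers of a group lay close together, at 57.3 ± 0.222 and 131 ± 9.30 CPM (SD, n = 2 each), and the level was 2.28-fold higher with baicalein (log2 fold change 1.19, SE 0.10, edgeR adjusted p = 0.000119). The ratio was 2.41 between baicalein 1 and saline 2 and 2.16 between baicalein 2 and saline 1. Col14a1 and Col5a3 kept their calls under all 11 alternatives, with log2 fold changes of 1.11 to 1.27 and of -1.99 to -1.82. Of the 4 tested FACIT genes 1 rose and 3 did not pass, against 7.65% of all tested genes higher. Col16a1 (4.76, 3.57, 5.16 and 8.48 CPM) and Col20a1 (1.06, 1.46, 1.99 and 2.59 CPM) were higher in both baicalein livers without passing (adjusted p = 0.157 and 0.217).

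The remaining types were low. Col13a1, a transmembrane collagen, stood at 6.47, 4.67, 6.95 and 6.69 CPM (adjusted p = 0.476), and Col23a1, Col8a1 and Col8a2 stayed between 0.344 and 3.04 CPM and did not pass. Of the 15 collagens with too few reads for a test, 13 had at least 1 read. Among these Col25a1 had 22, 5, 4 and 6 reads, and Col7a1, which forms the anchoring fibrils of skin and other lined surfaces, had 4, 4, 0 and 29. Col6a4, Col9a2, Col9a3, Col10a1, Col17a1, Col19a1, Col24a1, Col26a1 and Col28a1 had at most 9 reads in a liver. The highest value of Col7a1 was in baicalein 2, where Krt19, a keratin of bile ducts and other epithelia, was at 72.2 CPM against 1.24 to 2.29 CPM in the other livers. The part of epithelial transcripts in it was not tested.

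Type I collagen is built of α1 and α2 chains, and the balance of the transcripts separated the groups although neither gene did. The FPKM of Col1a1 was 1.95 and 1.90 times that of Col1a2 in the saline livers and 1.21 and 1.35 times in the baicalein livers. The size of this ratio depends on the gene lengths used for FPKM, 6563 bases for Col1a1 and 12426 for Col1a2. It therefore says nothing of the number of chains in the protein. In reads, Col1a1 had 2204, 448, 418 and 2030 and Col1a2 2139, 447, 653 and 2847. Both saline ratios were above both baicalein ratios, with and without muscle transcripts. This is a description of 4 ratios that was chosen after their values were seen, and it has no test. The ratio of Col4a1 to Col4a2 overlapped between the groups.

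**Figure D5:**
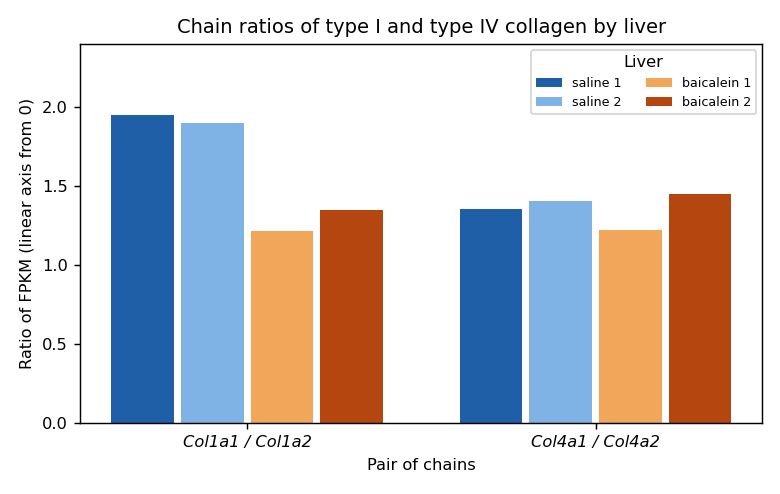
Ratio of FPKM between the chains of type I collagen (Col1a1 over Col1a2) and of type IV collagen (Col4a1 over Col4a2) in each liver, on a linear axis from 0. The type I ratio is 1.95 and 1.90 with saline and 1.21 and 1.35 with baicalein. The type IV ratio overlaps between the groups.

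Genes that act on collagen were then read from lists of the pathway, which serve here as a description. Of the 20 tested genes of chain modification, folding and secretion 2 rose and 0 fell (edgeR; median log2 fold change 0.12), near the 7.65% of all tested genes that were higher. P4ha1, a subunit of prolyl 4-hydroxylase, went from 12.9 ± 0.710 to 18.6 ± 0.317 CPM (SD, n = 2 each; log2 fold change 0.53, SE 0.13, edgeR adjusted p = 0.0252), and P3h3 encodes a prolyl 3-hydroxylase family member (log2 fold change 1.13, SE 0.29, adjusted p = 0.0328). Both calls were lost when any 1 liver was left out, with DESeq2, with limma-voom and with the replicate block. Serpinh1, the collagen chaperone HSP47, had 28.7, 17.4, 26.1 and 44.4 CPM, which did not pass (adjusted p = 0.517). Of 12 tested genes of procollagen trimming and crosslinking 1 rose and 0 fell (median 0.36). This was Pxdn, encoding peroxidasin, which crosslinks type IV collagen, at 20.2 and 17.9 CPM with saline and 35.3 and 32.6 CPM with baicalein (edgeR adjusted p = 0.00221, log2 fold change 0.83, SE 0.12). The lysyl oxidase gene Lox had 30, 5, 9 and 62 reads and did not pass.

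Of the 11 tested genes of matrix proteins that bind or surround fibrils, 5 rose and 0 fell (edgeR; median log2 fold change 0.45), against 7.65% of all tested genes higher. Without saline 2, 3 of the 5 were called. Dcn, encoding decorin, was at 70.1 and 64.5 CPM with saline and 169 and 172 CPM with baicalein (adjusted p = 5.50e-05, log2 fold change 1.34, SE 0.10). Bgn, encoding biglycan, went from 92.4 ± 12.9 to 171 ± 13.2 CPM (SD, n = 2 each; log2 fold change 0.89, SE 0.12, edgeR adjusted p = 0.00179). Postn (periostin, 1.82, SE 0.29) and Tnxb (tenascin-X, 0.59, SE 0.12) rose as well on the log2 scale, and the fifth was Lum (lumican, 1.31, SE 0.28). Their adjusted p-values by edgeR were 0.00389, 0.0139 and 0.0242. Without baicalein 2 all 3 calls were lost (0.0520, 0.0743 and 0.0896) and Fn1, the fibronectin gene, was called, while those of Dcn and Bgn held in all 11 alternatives. Fmod, encoding fibromodulin, a proteoglycan of tendon and cartilage, had 25.7, 3.87, 3.71 and 16.9 CPM. It did not pass, and the high livers were those of Col1a1.

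Among 15 basement membrane partners of type IV collagen 1 rose and 1 fell (edgeR; median log2 fold change 0.36), near the 15.5% of all tested genes called in either direction. Lama3, encoding the laminin α3 chain of epithelia, was at 7.58 and 8.46 CPM with saline and 0.688 and 1.20 CPM with baicalein (edgeR adjusted p = 0.000588, log2 fold change -3.06, SE 0.34). Lama1, encoding the α1 chain, went from 3.88 and 3.06 CPM to 12.6 and 7.18 CPM (edgeR adjusted p = 0.0156, log2 fold change 1.50, SE 0.31). Leaving out saline 1, saline 2 or baicalein 1 ended that call (adjusted p up to 0.172), as did limma-voom. Of the 8 tested genes of collagen breakdown and its inhibitors 2 rose and 0 fell (median 0.40), against 7.65% of all tested genes higher. These were Mmp14 (log2 fold change 0.39, SE 0.09) and Mmp19 (0.40, SE 0.11), which encode matrix metalloproteinases. Both calls were lost without saline 1, saline 2 or baicalein 1, with limma-voom and with the replicate block. Among the inhibitors, Timp3 reached 17.6, 14.4, 29.9 and 47.1 CPM, with no overlap of the groups. Its log2 fold change of 1.27 (SE 0.27) fell just outside the threshold (edgeR adjusted p = 0.0561). DESeq2, limma-voom and the crosswise block called it. Timp2 stood higher in both baicalein livers too (log2 fold change 0.71, SE 0.36, edgeR adjusted p = 0.326), and the crosswise block called it. Timp1 had 0, 1, 4 and 8 reads, too few for a test, and Mmp13, a collagenase gene, had 2 to 4. Of 7 tested collagen receptor genes 1 rose and 0 fell (median 0.31), against the same 7.65% of all tested genes. This was Ddr2, encoding a receptor for fibrillar collagen (edgeR adjusted p = 0.0460, log2 fold change 1.23, SE 0.34). The call ended without saline 2, baicalein 1 or baicalein 2, and with DESeq2, limma-voom or the replicate block. The TGF-beta axis is the pathway that drives collagen genes in stellate cells. Of its 14 tested genes 1 rose and 0 fell (median -0.02), near the 7.65% of all tested genes higher. This was Tgfbr3, encoding betaglycan (17.2 and 18.5 to 31.0 and 40.6 CPM, edgeR adjusted p = 0.00243, log2 fold change 1.01, SE 0.15). The ligand gene Tgfb1 had 16.6, 11.6, 17.3 and 15.0 CPM, which did not pass.

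Markers of the cells that make collagen in liver stood beside these values as follows. Of 10 stellate cell markers 6 rose and 0 fell (edgeR; median log2 fold change 0.85), against 7.65% of all tested genes higher. Lrat, the retinol-esterifying enzyme of quiescent stellate cells, was at 5.11 and 7.15 CPM with saline and 39.1 and 27.5 CPM with baicalein, and Reln at 35.9 and 31.0 against 122 and 96.1 CPM, both named after their values were seen. Without saline 1, where 8.32% of all genes were called in either direction, 3 of the 6 were called, and without each of the other livers 4. With the replicate block Lrat was not called. Des, which muscle also expresses, was at 151, 2.63, 6.26 and 101 CPM. Acta2, the actin of activated stellate cells and smooth muscle, had 13.1, 4.81, 3.99 and 101 CPM, which did not pass. Of 10 sinusoidal endothelial markers 8 rose and 0 fell (median 0.58), against 7.65% of all tested genes higher. Limma-voom and the replicate block called 6 each, and leaving out any 1 liver lowered the count as well. The part of these cells in the collagen values was not tested.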

How the data were processed

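RNA sequencing of 4 mouse livers was used, 2 with saline and 2 with baicalein. Libraries were of the SMARTer type, per the labels. The submitters' processing notes name build mm10. Aligner, counting tool and use of strand: not given in the sources used here. A single table deposited by the authors holds a raw read count and an FPKM per gene and liver. Columns were matched to livers by title. Gene positions are those of the table, whose build is not stated: of the 44 collagen genes 3 had the same start and end in the GENCODE annotation of mm10. For collagens the deposited FPKM equalled count over length and library total to within 0.00388%.

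Counts were filtered (filterByExpr, 12657 genes left), scaled by TMM (factors 0.963 to 1.07) and compared by edgeR 4.0.16 under R 4.3.3 (quasi-likelihood test, robust, two-sided, no covariate, Benjamini-Hochberg over all tested genes, threshold 0.05). The common biological coefficient of variation was 0.289. CPM use the TMM library size, and SDs are of CPM. The SE of a log2 fold change is its size divided by the square root of the F statistic. Livers of 1 group differed by more than sampling noise (chi-square per degree of freedom 23.4 for saline and 18.7 for baicalein) and were treated as separate samples. Alternatives were median-of-ratios size factors, DESeq2 1.42.0, limma-voom (limma 3.58.1), other filters, 2 block designs, each liver left out, and ratios within pairs of livers. The rule named each collagen past the threshold, those with a mean of at least 5 CPM, and from each list the called members of smallest p. The collagen genes, the lists and the rule were chosen with earlier results of these data known. Sequences come from RefSeq windows matched by symbol. Tf, from the hepatocyte list, matched no symbol in the deposited table and therefore has no values here. Ctgf, on the TGF-beta list, is an older symbol of Ccn2. Ccn2 is on that list too, was tested and did not pass (edgeR adjusted p = 0.479). Markers of portal fibroblasts and mesothelium (0 of 8 called) and other endothelium (1 of 8, higher) were read as well, as were those of bile duct (3 of 6, lower).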

Additional observations from a re-analysis of the deposited data

How the results depend on the processing

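The count of 5 collagens was 14 (11 higher, 3 lower) with the crosswise block (saline 1 with baicalein 2, saline 2 with baicalein 1), whose pairing follows the muscle transcripts seen in these data. The same block gave 3498 calls over all genes and 36 over the matrix lists, against 1968 and 14. Same-numbered livers deviated in opposite directions (correlation of deviations -0.77 over genes), so the numbers are not taken as pairs. With the replicate number as a block 5 collagens were called, 1132 genes in all and 9 on the matrix lists, and limma-voom called 8 on these lists. With 1 liver left out, the collagen calls ranged from 2 to 5 (1 to 3 higher, 1 to 2 lower), those of all genes from 1056 to 1328 and those of the matrix lists from 6 to 12. Such fits have fewer samples.

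Directions of collagens that did not pass turned with the livers used. Leaving out 1 liver gave log2 fold changes of -1.50 to 0.99 for Col1a1, -0.82 to 1.51 for Col1a2, -0.36 to 1.09 for Col3a1, -1.37 to 0.82 for Col12a1, -0.024 to 1.07 for Col5a1, -0.41 to 1.03 for Col5a2, -0.71 to 0.36 for Col15a1, -0.20 to 0.0621 for Col18a1, -0.0747 to 0.59 for Col4a1, -0.0339 to 1.14 for Col6a1, -0.38 to 1.38 for Col6a2 and -0.16 to 0.42 for Col6a3. Between saline 2 and baicalein 1 alone, Col5a2 was at -0.0848 and Col18a1 at 0.00797, and between saline 1 and baicalein 2 alone, an alternative chosen after seeing the data, Col15a1 was at 0.12. The log2 ratio of the summed muscle markers ranged from -9.01 to 6.92 with 1 liver left out. The cause of the changes was not tested. The summed fibrillar level, with a log2 ratio of 0.09, ranged from -0.71 to 0.89, and its ratio to type IV from -0.73 to 0.09. The number of livers, 2 in each group, limits all of these values.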
